A study of Mus musculus with 4 samples.

Results

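The 33 genes described here belong to the unfolded protein response and to the ATF4 programme that overlaps it. They were taken by symbol from a table of 52636 genes, as 16 genes of an ATF4 arm and 17 genes of an endoplasmic reticulum (ER) chaperone arm. Counts came from polyadenylated RNA of C2C12, an established mouse myoblast line, held in medium that favours fat cell formation for as long as 8 days. The 2 control libraries had no sesaminol, and the 2 sesaminol libraries came from cells given 50 µM of this sesame lignan, so cell line and medium were shared by both groups. Nothing says that replicate libraries were grown apart, so the p-values measure the spread between these samples only, which may be technical.

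The ER folds secreted and membrane proteins, and unfolded proteins there are sensed by IRE1, ATF6 and PERK. IRE1 splices Xbp1 mRNA, and XBP1 and ATF6 raise chaperones, disulfide isomerases and degradation factors through ER stress response elements. PERK phosphorylates the translation factor eIF2 alpha, as do the amino acid sensor GCN2 and other kinases, and this slows protein synthesis while ATF4 is translated; ATF4 then raises genes for amino acid supply, for tRNA charging and for feedback on the response. Both branches are known to be active as myoblasts differentiate.

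The sequences below show the promoter elements by which the arms are usually told apart, and they also show the gene that carries one of each. RefSeq windows (GRCm38.p6) from 250 bases before to 50 bases after the start site matched 30 of the 33 genes, 15 in each arm. Manf, Hyou1 and Slc7a5 had no entry. The motifs were searched on both strands. The ER stress response element (ERSE) was CCAAT and CCACG with 9 free bases between them, ERSE-II was ATTGG and CCACG with 1 free base, and the C/EBP-ATF element (CARE) was TGATGNAAN. ERSE was found in 7 of the 15 ER chaperone arm genes (Hspa5, Hsp90b1, Dnajc3, Pdia6, Calr, Canx and Creld2), in 0 of the 15 ATF4 arm genes and in 0.119% of all 32851 promoter windows. ERSE-II was found in Dnajb11 and Herpud1 and in 0.0365% of all windows. CARE was found in 4 of the 15 ATF4 arm genes (Trib3, Asns, Chac1 and Nupr1), in 1 of the 15 ER chaperone arm genes (Herpud1) and in 3.95% of all windows. A match is a description of letters and not a shown binding site. Each line gives the strand of the gene, 5′ to 3′, with the fixed letters of the motifs in capitals.
Hspa5, chr2:34772015-34772053, plus strand, ERSE: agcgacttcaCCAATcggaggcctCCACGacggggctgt
Calr, chr8:84847065-84847103, minus strand, ERSE: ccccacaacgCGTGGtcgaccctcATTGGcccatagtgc
Canx, chr11:50325790-50325828, minus strand, ERSE: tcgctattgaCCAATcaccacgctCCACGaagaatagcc
Herpud1, chr8:94386306-94386397, plus strand, CARE then ERSE-II: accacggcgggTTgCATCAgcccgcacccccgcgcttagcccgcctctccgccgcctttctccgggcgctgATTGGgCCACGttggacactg
Asns, chr6:7693214-7693242, minus strand, CARE: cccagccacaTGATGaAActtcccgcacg
Chac1, chr2:119351038-119351066, plus strand, CARE: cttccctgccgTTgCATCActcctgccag
Nupr1, chr7:126625563-126625591, minus strand, CARE: aaagggccagaTTgCATCAgacagggctt
Trib3, chr2:152344029-152344057, minus strand, CARE: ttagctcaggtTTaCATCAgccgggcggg

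Library totals ran from 10283135 to 24362899 counts, and levels are given as CPM (counts divided by the library total and brought to a common scale) after TMM scaling, a correction for library composition. All 33 members passed the filter on low counts, the smallest member count being 148. Sesaminol replicate 2 stood apart from the other libraries, with 1.44% of its counts from mitochondrial genes against 2.95% to 3.36%. The 8 muscle markers were present in every library and summed to 8505 and 8852 CPM in controls and 5013 and 3657 CPM with sesaminol. Of the 8, 5 fell (Myod1, Myog, Ckm, Myh3 and Actn2), beside 3.24% of all tested genes. Des, the largest part of the sum, and Cdh15 were lower without overlap but did not pass (edgeR adjusted p = 0.486 and 0.091). Myf5 had a positive estimate (0.22 ± 0.27), at 32.6 and 32.9 CPM in controls and 50.4 and 26.3 CPM with sesaminol. The 7 adipocyte markers summed to 53.6 and 39.4 CPM in controls and 67.2 and 71.3 CPM with sesaminol, and none passed the test. Most of that sum came from the adipogenic transcription factor genes Cebpa (35.8 and 24.5 CPM against 47.8 and 55.9 CPM, edgeR adjusted p = 0.0652) and Pparg (10.7 and 10.9 CPM against 16.1 and 12.2 CPM), both higher with sesaminol without overlap. Other markers of the list, all at low levels, were lower with sesaminol. Fabp4 was at 3.38 and 1.90 CPM in controls and 1.34 and 1.12 CPM with sesaminol, without overlap. The adipocyte hormone gene Adipoq was at 0.596 and 0.876 CPM against 0.536 and 0.373 CPM, also without overlap. Plin1 had a negative estimate (-0.97 ± 0.78) with overlap. Cidec overlapped between the groups, and Lep was at 0 counts in 2 libraries. The leukocyte markers (5 genes) summed to 16.1 to 22.4 CPM, Cd3e being at 0 in 2 libraries, and the endothelial markers (4 genes) to 4.75 to 7.31 CPM. In bulk RNA, fewer cells of a kind and less RNA per cell cannot be told apart.

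No member of either arm passed the test between the groups, yet the ATF4 arm differed within the groups, and did so as a block. All 16 ATF4 arm genes were higher in control replicate 2 than in replicate 1, and all 16 were higher in sesaminol replicate 1 than in replicate 2 (15 of 16 with library size alone). By the edgeR quasi-likelihood test with Benjamini-Hochberg adjustment over 18998 genes, 0 of 33 members passed at 0.05, where 2.72% of all tested genes rose and 3.24% fell. DESeq2 called 2 members (Slc7a5 lower, Edem1 higher), where it called 3.37% of all genes higher and 4.21% lower, and limma-voom called 0. At an unadjusted p under 0.05 the edgeR test counted 3 members higher (Ddit3, Dnajb9 and Edem1) and 6 lower (Chac1, Psph, Mthfd2, Slc7a5, Herpud1 and Xbp1), against 9.32% and 8.54% of all tested genes. The median log2 fold change, sesaminol minus control, was -0.20 over the ATF4 arm, -0.03 over the ER chaperone arm and 0.02 over all tested genes. The muscle marker sum was lower and the adipocyte marker sum higher in both sesaminol libraries, and their part in any member's difference was not tested. Calls depended on which sesaminol library was kept: without replicate 1, 12 ATF4 arm genes and 3 ER chaperone arm genes (Herpud1, Xbp1 and Calr) fell and 1 (Edem1) rose, and without replicate 2, 5 members rose (Ddit3, Ppp1r15a, Dnajb9, Canx and Edem1) and 1 fell (Slc7a5). Over all genes tested in the same fits, 9.36% rose and 13.3% fell without replicate 1, and 8.06% rose and 7.04% fell without replicate 2, so the ER chaperone arm without replicate 1 was near the background. In those fits the spread was estimated from the controls and the lone sesaminol library was assumed to vary like them.

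**Figure D1:**
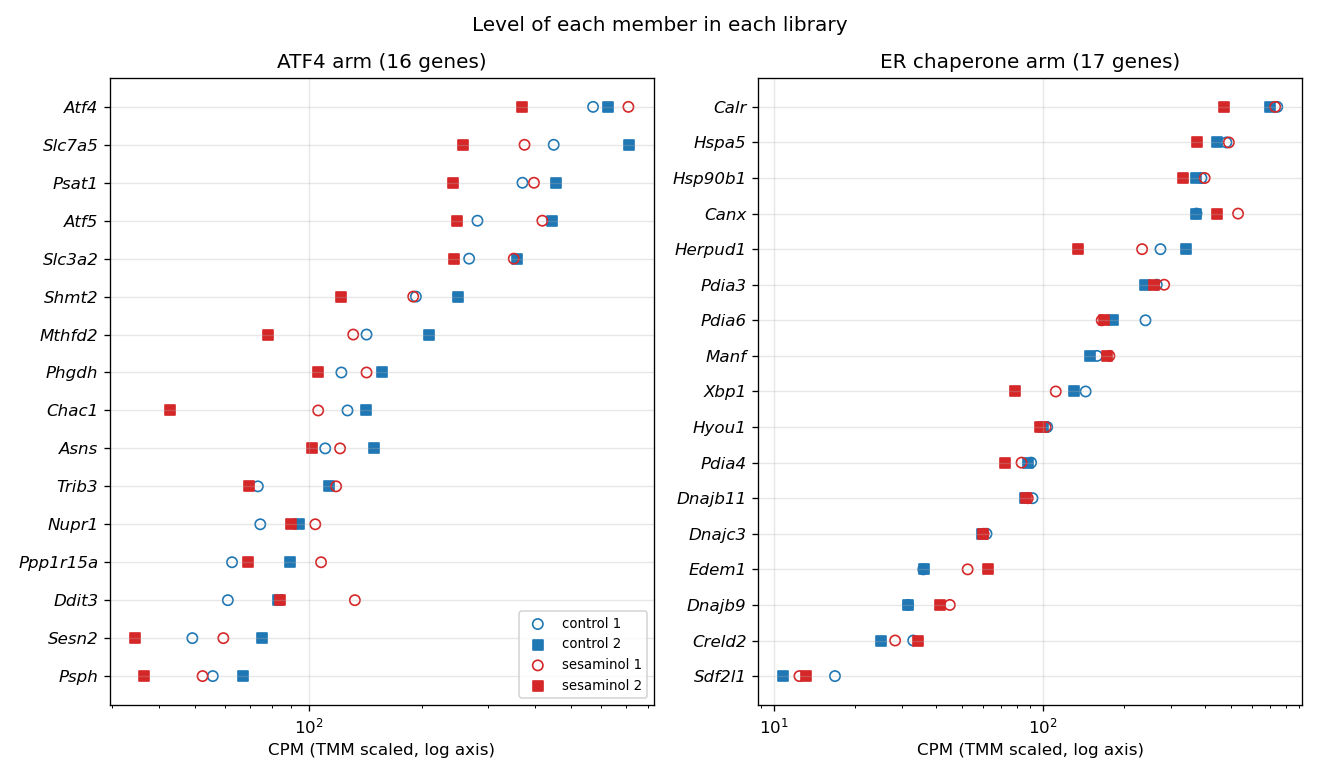
Level of each of the 33 members in each of the 4 libraries, in TMM-scaled CPM on a log axis, with genes ordered by their mean in controls (blue, controls; red, sesaminol; open circles, replicate 1; filled squares, replicate 2). In the ATF4 arm the control 2 square lies to the right of the control 1 circle and the sesaminol 2 square to the left of the sesaminol 1 circle in every row.

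Of the 7 regulators of the ATF4 arm, 4 had positive and 3 negative estimates, and none passed. Atf4, the transcription factor at its centre, stood at 571 and 627 CPM in the controls and at 709 and 369 CPM with sesaminol. It was the highest member per length, at 254 CPM per kb of annotated exon in controls. The sesaminol libraries lay on either side of both controls, and the log2 fold change was -0.15 ± 0.30 (SE; edgeR adjusted p = 0.878). Atf5, a related factor, was at 281 and 444 CPM without sesaminol and at 419 and 248 CPM with it, so the groups overlapped. Its value is uncertain, since it overlaps Il4i1 by 82 exon bases and Il4i1 had 44.5% of its count.

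Ddit3 (chr10:127290774-127296288, plus strand; GRCm38, GENCODE M21, as for the genes below), which encodes the stress transcription factor CHOP, stood at 61.0 and 82.7 CPM in controls and at 133 and 83.7 CPM with sesaminol. The groups did not overlap, though control replicate 2 and sesaminol replicate 2 were nearly level, and the log2 fold change of 0.59 ± 0.24 did not pass (edgeR adjusted p = 0.247). Ddit3 overlaps the methionyl-tRNA synthetase gene Mars by 68 exon bases, and Mars held 157% of its count. Mars itself was at 161 and 183 CPM in controls and at 146 and 114 CPM with sesaminol, lower between the groups where Ddit3 was higher. Within each group the 2 genes had the same order of libraries. The part of shared reads in the level of Ddit3 was not tested. Over the 16 genes of the arm, Ddit3 was the one with no overlap and a higher level with sesaminol and 5 had no overlap and a lower level, against 24.2% and 22.8% of all tested genes.

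The next regulators had positive estimates near 0 to 0.22. Ppp1r15a, the phosphatase subunit GADD34 that reverses eIF2 alpha phosphorylation, was 0.22 ± 0.25 higher on the log2 scale, which did not pass (edgeR adjusted p = 0.758), and its reads may be shared with Tulp2 (206% of its count, 12 exon bases in common). Nupr1, a stress-induced chromatin protein gene, stood at 74.4 and 94.1 CPM in controls and 104 and 89.8 CPM with sesaminol. Trib3, a pseudokinase that restrains the response, had an estimate near 0 (0.0047 ± 0.28), its libraries being mirrored: 73.3 and 113 CPM in controls, 118 and 69.4 CPM with sesaminol. Sesn2, which encodes the leucine-binding inhibitor of mTORC1 signalling sestrin 2, stood at 49.1, 75.4, 59.3 and 34.5 CPM in the same order of libraries and had a negative estimate (-0.42 ± 0.28).

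The 9 members of the arm that handle amino acids, one-carbon units or glutathione all had negative estimates, and none passed. Mthfd2, a mitochondrial folate enzyme, stood at 143 and 209 CPM in controls and at 131 and 78.1 CPM with sesaminol. The groups did not overlap, but sesaminol replicate 1 was close to control replicate 1, and the log2 fold change was -0.75 ± 0.27 (edgeR adjusted p = 0.179). Shmt2, the serine hydroxymethyltransferase that works beside it, had -0.50 ± 0.24, also without overlap. Of the serine synthesis enzymes in pathway order, Phgdh had -0.17 ± 0.21, Psat1 -0.37 ± 0.26 and Psph -0.47 ± 0.21 on the log2 scale. Psph had no overlap between the groups, but it shares 452 exon bases with Cct6a, which held 320% of its count. Asns, asparagine synthetase, was closest to level among the enzymes after Phgdh, at 111 and 149 CPM in controls and 121 and 102 CPM with sesaminol.

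Chac1, which encodes an enzyme that breaks down glutathione, spread most between the sesaminol libraries, at 106 and 42.9 CPM against 127 and 142 CPM in controls. Both sesaminol libraries were below both controls and the log2 fold change was -0.86 ± 0.35 (edgeR adjusted p = 0.230). Slc7a5 (chr8:121881150-121907694, minus strand), the light chain of the leucine transporter LAT1, stood at 449 and 713 CPM in controls and at 375 and 257 CPM with sesaminol. This was the lowest estimate among the 33 members, -0.88 ± 0.28 (edgeR adjusted p = 0.124). Its heavy chain Slc3a2, with which it forms the transporter, stood at 267, 359, 351 and 243 CPM and overlapped between the groups. The level of Slc3a2 relative to Slc7a5 within a library was 0.596 and 0.503 in controls and 0.936 and 0.944 with sesaminol, a ratio in which the scaling of libraries cancels and which was chosen after the values were seen.

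**Figure D2:**
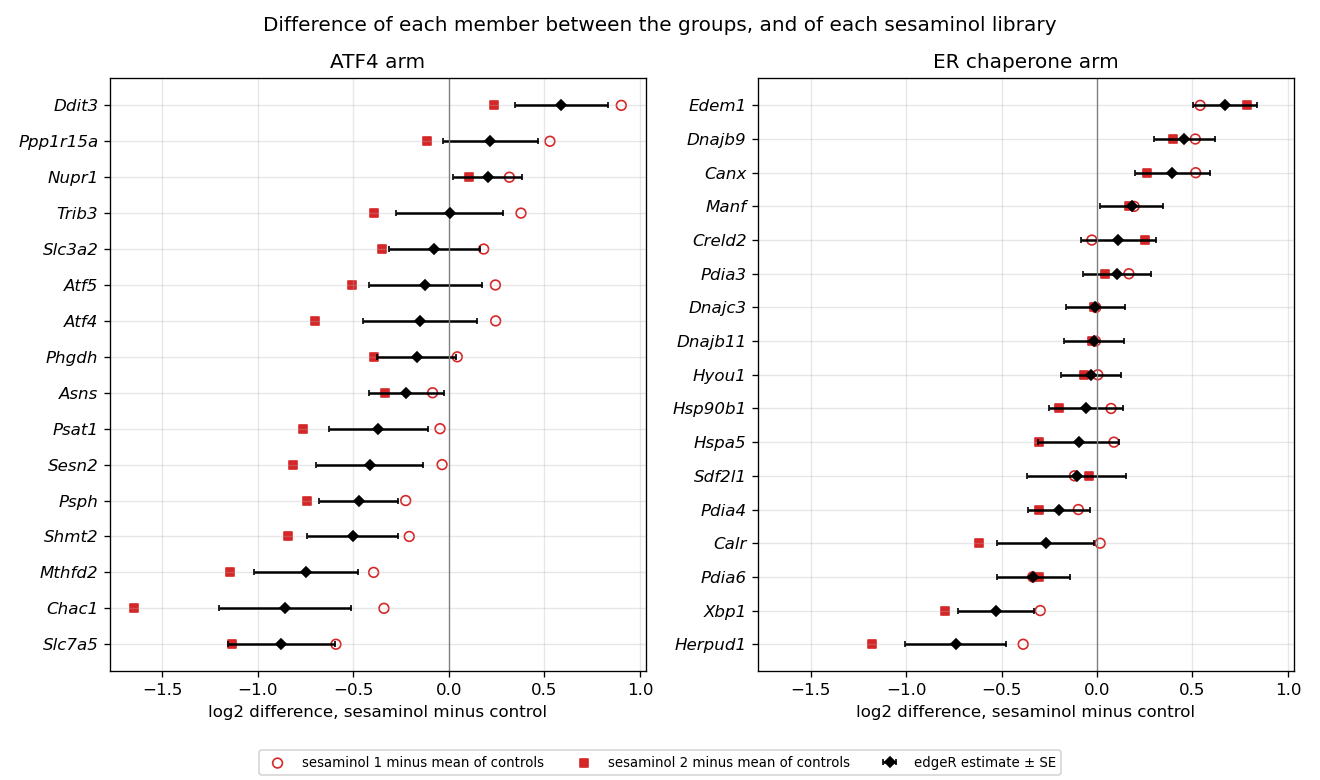
Log2 difference between sesaminol and control for each member (diamonds with SE bars, edgeR estimates) and for each sesaminol library against the mean log2 CPM of the controls (open circles, sesaminol 1; filled squares, sesaminol 2). In the ATF4 arm every square lies left of its circle, from 0.21 for Nupr1 to 1.31 for Chac1, while 4 of 17 squares in the ER chaperone arm lie to the right.

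The ER chaperone genes had estimates close to 0. Of the 7 chaperone and co-chaperone genes, 6 had log2 fold changes between -0.11 and -0.01, and none was called. Hspa5, which encodes the ER Hsp70 protein BiP, stood at 481 and 444 CPM in controls and 492 and 374 CPM with sesaminol (log2 fold change -0.10 ± 0.21, edgeR adjusted p = 0.899). Hsp90b1, the ER Hsp90, stood at 389, 371, 400 and 331 CPM, and 1810014B01Rik, which overlaps it by 415 exon bases, held 60.3% of its count. The BiP partners Dnajc3, Dnajb11 and Hyou1 differed least, with estimates of -0.01 ± 0.15, -0.02 ± 0.16 and -0.03 ± 0.16. Dnajc3 ran from 59.3 to 61.8 CPM over all 4 libraries. Sdf2l1, a BiP cofactor and the member with fewest counts, ran from 10.8 to 16.9 CPM, both in controls.

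Dnajb9 was the exception among the co-chaperones. It encodes ERdj4, a J protein that targets proteins for degradation and restrains IRE1, and it stood at 31.6 and 31.5 CPM in controls and 45.1 and 41.6 CPM with sesaminol. The controls were level and both sesaminol libraries lay above them, with a log2 difference of 0.46 ± 0.16 that did not pass (edgeR adjusted p = 0.165). Edem1 (chr6:108828641-108859356, plus strand), a lectin that extracts misfolded glycoproteins for degradation, showed the same form, at 36.0 and 36.3 CPM in controls and 52.6 and 62.3 CPM with sesaminol. Its log2 estimate, 0.67 ± 0.17, was the highest of the 33 and had the smallest adjusted p, just above the threshold (edgeR adjusted p = 0.0512; DESeq2 adjusted p = 0.0493). Over the alternatives that adjusted p ran from 0.000162 without sesaminol replicate 1 to 0.493 without control replicate 1.

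Herpud1, a membrane protein of the degradation machinery (chr8:94386438-94395377, plus strand), had a negative estimate. It stood at 274 and 342 CPM in controls and 234 and 135 CPM with sesaminol, below both controls in each library (log2 fold change -0.74 ± 0.27, edgeR adjusted p = 0.173). Of the 17 genes of its arm it was the one higher in control replicate 2 than in replicate 1 and also higher in sesaminol replicate 1 than in replicate 2, the order of all ATF4 arm genes. Xbp1, the transcription factor spliced by IRE1, stood at 144 and 131 CPM in controls and 112 and 79.0 CPM with sesaminol (-0.53 ± 0.20, edgeR adjusted p = 0.197). Counts per gene do not separate spliced from unspliced Xbp1 mRNA.

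The lectin chaperones Calr and Canx, which bind glycoproteins as they fold, had estimates of opposite sign. Calr, soluble calreticulin, stood at 744 and 702 CPM in controls and 731 and 470 CPM with sesaminol (-0.27 ± 0.25), so that sesaminol replicate 2 was low and the others were nearly level. Canx, its membrane-bound relative calnexin, stood at 373 and 371 CPM in controls and 532 and 446 CPM with sesaminol, without overlap (log2 fold change 0.40 ± 0.20, edgeR adjusted p = 0.351). The level of Canx relative to Calr within a library was 0.501 and 0.528 in controls and 0.728 and 0.949 with sesaminol, a ratio also chosen after the values were seen. Their promoter windows both held an ERSE.

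The disulfide isomerases Pdia3, Pdia4 and Pdia6 had log2 fold changes of 0.10 ± 0.18, -0.20 ± 0.16 and -0.33 ± 0.19. For Pdia6 the controls, at 241 and 182 CPM, were farther apart than either sesaminol library (166 and 169 CPM) was from control replicate 2. Creld2, a chaperone with isomerase-like activity, ran from 25.1 to 34.3 CPM with overlap. Manf, a secreted stress protein, stood at 159 and 150 CPM in controls and 177 and 174 CPM with sesaminol, a difference of 0.18 ± 0.16 that did not pass (edgeR adjusted p = 0.672). Rbm15b overlaps Manf by 14 exon bases and held 46.9% of its count. Over the arm, 4 genes had no overlap with sesaminol higher and 4 with sesaminol lower, beside the background of 24.2% and 22.8% given above.

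Within the groups the 2 arms ordered the controls differently, while most genes of both arms were higher in sesaminol replicate 1 than in replicate 2. Control replicate 2 exceeded replicate 1 by a median of 0.43 on the log2 scale over the ATF4 arm, with a range of 0.13 for Atf4 to 0.67 for Slc7a5. Sesaminol replicate 1 exceeded replicate 2 by a median of 0.65, with a range of 0.21 for Nupr1 to 1.31 for Chac1. The summed level of the 16 genes was 3011 and 4027 CPM in controls and 3518 and 2194 CPM with sesaminol, so the sesaminol libraries lay inside and below the range of the controls. In the ER chaperone arm 2 of 17 genes were higher in control replicate 2, and 13 of 17 were higher in sesaminol replicate 1, with medians of -0.08 and 0.12. Both orders together were found in 16 of 16 ATF4 arm genes, in 1 of 17 ER chaperone arm genes and in 22.5% of all tested genes. Sesaminol replicate 2, the library where the ATF4 arm was lowest, was also the library with the low mitochondrial share and the lowest muscle marker sum. Of the 8 muscle markers, 6 were higher in sesaminol replicate 1 than in replicate 2, among them Des (2781 and 1582 CPM), the largest part of the sum. Myog (464 and 708 CPM) and Myh3 (850 and 884 CPM) went the other way. The part of the mitochondrial share and of the muscle markers in the spread of the ATF4 arm was not tested. With library size alone the 16 genes higher in sesaminol replicate 1 became 15 and the 13 of 17 became 6.

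Genes outside the 16 that are known to depend on ATF4 mostly had the same order. Of 29 other ATF4 target genes tested, 28 were higher in control replicate 2 and 24 in sesaminol replicate 1, with 23 showing both. Of 20 cytosolic aminoacyl-tRNA synthetases, which ATF4 raises together with amino acid enzymes, 16 and 18 did so, and 15 showed both. Both orders were also found in 8 of 15 stress sensors and transducers and in 6 of 13 mitochondrial chaperones and proteases, so the order was not limited to ATF4 target lists. They were found in 4 of 14 cytosolic heat shock genes, 5 of 31 other ER folding genes, 5 of 23 ER-associated degradation genes and 3 of 20 ER translocation genes. Lonp1 of the mitochondrial list and Nars of the synthetases were also counted among the 29 other ATF4 targets, and each showed both orders. The sesaminol order alone was common to all of these lists. From 64.3% (cytosolic heat shock) to 90% (synthetases) of their genes were higher in sesaminol replicate 1, against 49.4% of all tested genes. The list medians of this difference ran from 0.05 to 0.44 on the log2 scale. It depends on the TMM factors, 0.946 and 1.10 for the sesaminol libraries, and the lists were not recounted with library size alone. Median control levels were 60.1 to 138 CPM in these lists and 15.9 CPM over all tested genes, so the 49.4% is no like-for-like background. These lists were made with earlier results of the data known, and genes of a list share their libraries, so the counts describe these 4 libraries.

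**Figure D3:**
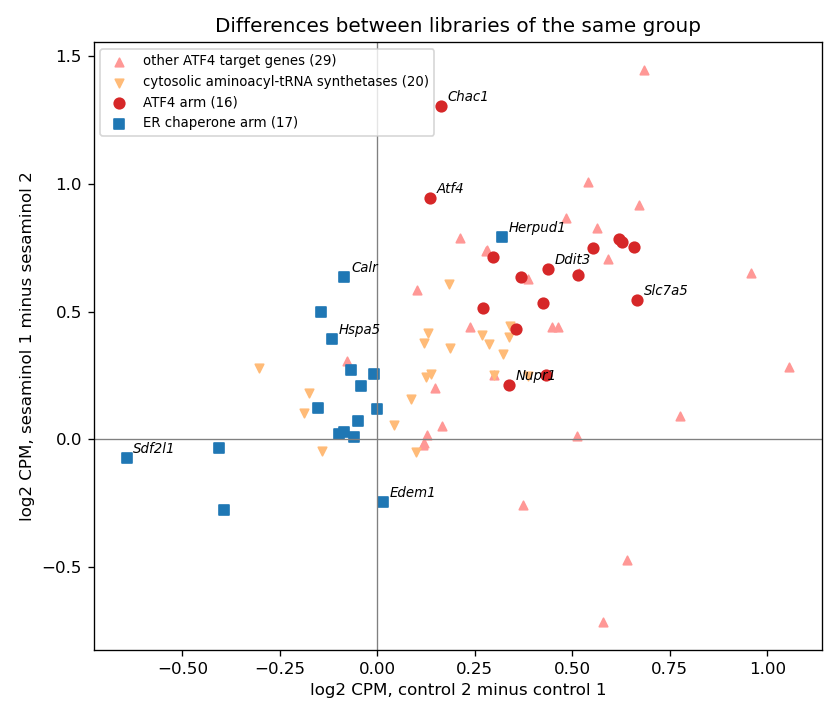
Difference in log2 CPM between the controls (x axis, control 2 minus control 1) and between the sesaminol libraries (y axis, sesaminol 1 minus sesaminol 2), 1 point per gene, for both arms, other ATF4 target genes and aminoacyl-tRNA synthetases. All 16 ATF4 arm genes fall to the upper right of 0, with Herpud1 as the 1 gene of the ER chaperone arm among them.

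Since all genes of the ATF4 arm differed together between libraries of a group, each of its genes was also set against the mean log2 CPM of the other 15 in the same library. This was chosen after the values were seen, has no test of its own, and makes a rise of some genes appear as a fall of others. Ddit3 was 1.27 and 1.26 below the rest of the arm in controls and 0.36 and 0.37 below it with sesaminol, a difference of 0.90 with ranges of 0.01 within each group. Ppp1r15a was at -1.23 and -1.14 in controls and at -0.68 and -0.67 with sesaminol, and Nupr1 at -0.96 and -1.06 against -0.73 and -0.26. Mthfd2 was at 0.04 and 0.17 in controls and at -0.37 and -0.48 with sesaminol, Slc7a5 at 1.80 and 2.06 against 1.24 and 1.36, and Chac1 at -0.14 and -0.42 against -0.70 and -1.40. Atf4 overlapped between the groups on this scale, at 2.18 and 1.86 in controls and 2.22 and 1.91 with sesaminol. In all, 5 genes lay higher with sesaminol without overlap (Ddit3, Ppp1r15a, Nupr1, Trib3 and Slc3a2) and 6 lower (Chac1, Slc7a5, Mthfd2, Shmt2, Psph and Psat1). Among all tested genes set against the mean of the arm, 23.1% lay higher and 8.02% lower without overlap. Those genes do not share the spread of the arm that the subtraction removes, so these shares are no like-for-like background for the 5 and 6 genes. The same subtraction within the ER chaperone arm left 5 genes higher, 5 lower and 7 with overlap, so such a split was not particular to the ATF4 arm. As a plain ratio, Ddit3 stood at 0.428 and 0.395 of the level of Mthfd2 in controls and at 1.01 and 1.07 with sesaminol. This pair was also chosen after the values were seen, from genes that differed in opposite directions. Against Chac1 the spread was wider, at 0.481 and 0.582 in controls and 1.25 and 1.95 with sesaminol.

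**Figure D4:**
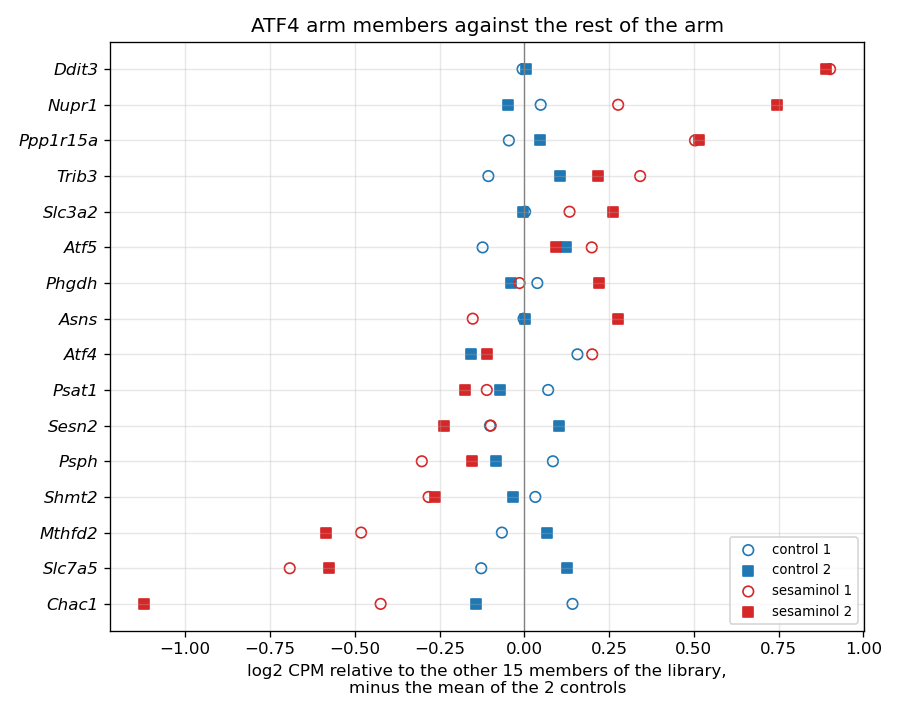
Each ATF4 arm gene relative to the other 15 in the same library, in log2 CPM, with the mean of the 2 controls set to 0 (symbols as in the plot of levels). The sesaminol points of Ddit3 coincide at about 0.90 to the right of the controls, and those of Mthfd2, Slc7a5 and Chac1 lie to the left of both controls.

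Around the 2 arms, 9 of the 163 tested genes in 8 further lists passed the edgeR test, 7 higher and 2 lower. This was 5.52% of them, beside 5.95% of all tested genes, so the lists together were at the background. Of 15 sensors and transducers of the response, 14 did not pass, among them the genes for PERK, IRE1 and ATF6, and 1 fell. That gene was Creb3l1, which encodes the ER-anchored transcription factor OASIS known from bone matrix secretion, at 111 and 128 CPM in controls and 63.2 and 45.0 CPM with sesaminol (log2 fold change -1.15 ± 0.20, edgeR adjusted p = 0.012; 0.0684 without control replicate 2). Of 29 other ATF4 targets, 2 rose and 1 fell (2.72% and 3.24% of all tested genes did), with a median of -0.12. Fgf21, a hormone gene that ATF4 raises in stressed muscle, fell from 127 and 150 CPM to 38.4 and 28.3 CPM (log2 fold change -2.06 ± 0.20, edgeR adjusted p = 0.00124). Sqstm1, the autophagy receptor p62, and Lonp1, the mitochondrial protease, rose 1.92-fold and 1.63-fold (edgeR adjusted p = 0.047 and 0.0459). Both are known targets of other factors too, and neither passed when a control was left out (0.530 to 0.746) or with RLE size factors (0.061 and 0.0582), nor did Lonp1 with counts thinned to the smallest library (0.054). Without sesaminol replicate 1, 4 of the 29 rose and 13 fell (9.36% and 13.3% of all genes in that fit), and without replicate 2, 8 rose and 3 fell (8.06% and 7.04%).

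None of the 20 aminoacyl-tRNA synthetases passed by edgeR, DESeq2 or limma-voom, and 17 had negative estimates, with a list median of -0.25. At an unadjusted p under 0.05 the edgeR test counted 3, all lower, beside 8.54% of all tested genes. The threonyl enzyme gene Tars had the smallest adjusted p, at 179 and 223 CPM in controls and 150 and 119 CPM with sesaminol (-0.58 ± 0.20, edgeR adjusted p = 0.149). Without sesaminol replicate 1, 12 of these genes fell (13.3% of all genes did), and without sesaminol replicate 2, 1 rose (8.06%).

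Among 31 other ER folding genes, 3 rose and none fell, with a list median of 0.01. Of all tested genes, 2.72% rose and 3.24% fell. Ero1l, the oxidase that passes oxidizing power to the disulfide isomerases and a known target of both CHOP and the hypoxia factor HIF1, stood at 30.0 and 43.1 CPM in controls and at 174 and 184 CPM with sesaminol. This was a 4.88-fold rise (log2 fold change 2.29 ± 0.21, edgeR adjusted p = 0.000941) in both libraries, larger than the difference of any of the 33 members. Its paralog Ero1lb rose 2.37-fold, from 6.55 and 6.65 CPM to 13.6 and 17.6 CPM (edgeR adjusted p = 0.0219, but 0.144 when control replicate 1 was left out and 0.160 when replicate 2 was). Tmx1, a membrane-bound isomerase gene, rose 1.59-fold (edgeR adjusted p = 0.0449), a call that was lost with each of the other scalings, with limma-voom, with thinned counts and without either control (0.0515 to 0.488).

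In ER-associated degradation and ER translocation 0 of 23 and 0 of 20 genes passed (1 and 0 at an unadjusted p under 0.05; 0 by DESeq2 and limma-voom). Their smallest adjusted p belonged to Ngly1, the cytosolic peptide N-glycanase gene (0.269), and Tram1, a translocon gene (0.501). Without sesaminol replicate 1, 7 of the 23 and 2 of the 20 were called, around the 22.7% called over all genes in that fit. Of 13 mitochondrial chaperone and protease genes Lonp1 alone passed. Of 14 cytosolic heat shock genes 2 rose, beside 2.72% of all tested genes. Hspa1b, an inducible Hsp70 gene, rose from 32.3 and 31.1 CPM to 78.0 and 98.0 CPM (log2 fold change 1.48 ± 0.18, edgeR adjusted p = 0.00237), though reads from its near-identical neighbour Hspa1a could be assigned to either. Dnajb1, the Hsp40 partner of cytosolic Hsp70, rose 1.73-fold (edgeR adjusted p = 0.0206, but 0.305 when control replicate 1 was left out and 0.402 when replicate 2 was). The ER counterpart Hspa5 had an estimate of -0.10 ± 0.21, and the difference between the cytosolic and ER genes was not tested.

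**Figure D5:**
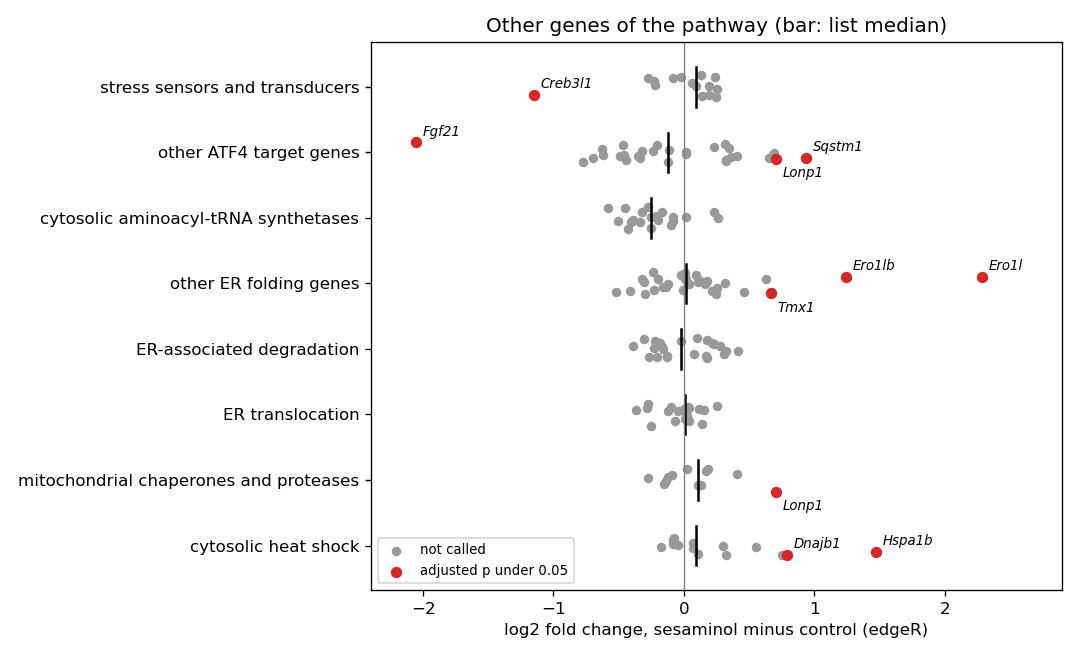
Log2 fold change, sesaminol minus control (edgeR), of every tested gene in 8 further lists of the pathway, with genes at an adjusted p under 0.05 in red and the list median as a bar. Ero1l at 2.29 and Fgf21 at -2.06 lie farthest out, and the medians lie between -0.25 and 0.11.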

How the data were processed

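The deposited table holds raw counts per gene for 4 libraries, not normalized. FastQC, MultiQC, fastp, Picard, featureCounts, edgeR and GRCm38 are named, per the submitters' processing notes; for the aligner, strand setting, annotation release and multi-mapped reads the status is: not given in the sources used here. Among counts from 1 to 12, 75.8% to 79.6% were even, and whether mates of a pair were counted apart was not tested. The members and lists were chosen with earlier results of these data known.

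Genes were kept by filterByExpr (minimum count 10, total 15), scaled by TMM and tested with edgeR 4.0.16 (R 4.3.3; glmQLFit and glmQLFTest, two-sided, no covariates, all 4 libraries, Benjamini-Hochberg over 18998 genes, threshold 0.05). SE is |log2 fold change| over the root of the F statistic. Ratios of single libraries use log2 CPM with a prior count of 0.5. Named were all members and, per list, up to 4 called genes with the smallest adjusted p, or the smallest where none was called. Positions, exon lengths and overlaps are from GENCODE M21 (GRCm38); a gene is said to share reads where an overlapping gene had at least 20% of its count. Alternatives were RLE, upper quartile and library-size scaling, no filter, DESeq2 1.42.0, limma-voom (limma 3.58.1), a replicate block, each library left out, counts thinned to the smallest library, and genes that share reads left out. The test was checked on simulated data. The comparison with the other 15 genes of the arm and the ratios within a library were added after the values were seen and have no test.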

Additional observations from a re-analysis of the deposited data

How the results depend on the processing

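Over all genes 1131 passed; 1913 passed without the low-count filter and 1875 with a replicate block, and 452 (without control replicate 2) to 4642 (without sesaminol replicate 1) with 1 library left out. In the ATF4 arm 0 passed, against 4 without the filter, 1 by DESeq2 and 0 to 12 with 1 library left out. In the ER chaperone arm 0 passed, against 2 without the filter, 1 by DESeq2, 1 without genes that share reads and 0 to 4 with 1 library left out. In the further lists 9 passed, against 15 without the filter and 3 (without control replicate 2) to 54 (without sesaminol replicate 1) with 1 library left out. Without the filter the 1913 genes were out of 34660 tested. Without genes that share reads, the 1 ER chaperone arm gene (Edem1) was out of 15 tested, beside 807 of 11893 genes over all. With the replicate number as a block, 2 ATF4 arm genes (Chac1 and Slc7a5, lower) and 2 ER chaperone arm genes (Herpud1 lower, Edem1 higher) passed. So did 14 of the 163 genes of the further lists, beside 1875 of 18998 genes over all. The 2 pairs share only a number, and deviations of same-numbered libraries correlated at r = -0.07 across genes. The other scalings shifted the median gene by -0.03 to 0.07 on the log2 scale.

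The ER chaperone arm median for sesaminol replicate 1 was 0.004, against -0.076 with upper quartile scaling and -0.043 with library size alone, and for replicate 2 -0.04, against 0.13 with library size alone. Its genes higher in control replicate 2 numbered 2, against 4 with RLE size factors and 1 with upper quartile scaling, and those higher in sesaminol replicate 1 numbered 13, against 6 with library size alone.

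Estimates near 0 changed sign. Trib3 was -0.0045 with RLE size factors, -0.041 with upper quartile scaling, -0.0025 by DESeq2 and -0.014 with the replicate block. With library size alone Hsp90b1 was 0.0013, Dnajb11 0.050, Dnajc3 0.060 and Hyou1 0.036. Without the filter Dnajb11 was 0.0051 and Dnajc3 0.013, and with thinned counts Dnajc3 was 0.0044. With each library left out in turn the ranges that crossed 0 were -0.74 to 0.25 for Atf4, -0.59 to 0.24 for Atf5, -0.47 to 0.35 for Trib3, -0.43 to 0.0069 for Asns, -0.44 to 0.037 for Phgdh, -0.18 to 0.51 for Ppp1r15a, -0.41 to 0.17 for Slc3a2, -0.35 to 0.094 for Hspa5, -0.24 to 0.080 for Hsp90b1, -0.072 to 0.023 for Dnajb11, -0.055 to 0.011 for Dnajc3, -0.41 to 0.23 for Sdf2l1, -0.11 to 0.011 for Hyou1, -0.66 to 0.023 for Calr and -0.081 to 0.31 for Creld2. The cause was not tested. With 2 libraries a group, differences of the size of most members here were within the spread between libraries.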
